A study of Mus musculus with 4 samples.

Results

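The synaptic vesicle and release machinery was followed in mouse hippocampus through 40 genes, taken by symbol from the table of each library: 3 synapsins, 5 genes of the synaptophysin family, 3 SV2 genes, 9 synaptotagmins, 4 SNARE genes, 6 SNARE regulators and recycling factors, 8 active zone genes, and Rab3a with its effector Rph3a. All 40 were listed in all 4 libraries and all 40 had a mean of at least 1 RPKM, the level set for a comparison, among 18492 genes listed in any library and 13186 compared. RPKM, the read count divided by gene length and by library total, can be set side by side between genes of different length. The member with the fewest reads was Rims3 in DKO, with 142.

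RNA from the hippocampus of C57BL/6 mice aged 6 months gave 1 library for each of 4 genotypes: Ogg1-/- (Ogg1 KO), Mutyh-/- (Mutyh KO), the knockout of both genes (DKO) and wild type (WT). Ogg1 encodes the DNA glycosylase that removes oxidised guanine, and Mutyh the glycosylase that removes adenine mispaired with it. The kind of allele, the number of animals behind each RNA sample and their sex are not given in the labels. Because each genotype is a single library, no test can be made: a fold below compares libraries, and the exact 95% interval in parentheses after it covers counting error only.

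Depth was similar, at 17.02 M (mega) reads in genes in the Ogg1 KO, 17.15 M in the Mutyh KO and 18.20 M in the DKO library, against 18.12 M in WT. Ogg1 had 130 reads in the Ogg1 KO, 81 in the Mutyh KO and 103 in the DKO library, against 94 in WT, so its total runs against the labels Ogg1 KO and DKO, on which each direction given for these libraries rests. The reads covered 47.2% of the Ogg1 gene in the library labelled Ogg1 KO, 81.5% in Mutyh KO and 46.4% in the library labelled DKO, against 86.7% in WT. Mutyh had 35 reads in the Ogg1 KO, 15 in the Mutyh KO and 20 in the DKO library, against 39 in WT. Markers of hippocampal neurons were present in every library: the summed level of 10 dentate granule cell genes ranged from 142 to 169 RPKM, that of 7 CA1 genes from 229 to 269 RPKM and that of 10 CA2 and CA3 genes from 251 to 266 RPKM, with no gene of these lists at 0. Genes of the choroid plexus set the libraries apart: the 12 markers summed to 2913 RPKM in the Ogg1 KO, 2846 in the Mutyh KO and 1462 in the DKO library, against 253 in WT, or 0.483%, 0.483% and 0.2496% of reads against 0.0500%. Xist, expressed from the inactive X chromosome, had 23 reads in the Ogg1 KO, 10307 in the Mutyh KO and 29 in the DKO library, against 14 in WT. Each comparison with the Mutyh KO library thus joins genotype with this difference, and these cannot be told apart.

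At a nerve terminal, vesicles are filled with transmitter, held in clusters by synapsins, docked at the active zone by large scaffolds and RIM proteins, and primed by Munc13 proteins. The vesicle SNARE synaptobrevin then zips onto syntaxin and SNAP-25 of the plasma membrane, complexins hold the assembled complex, and synaptotagmins trigger fusion when calcium enters. NSF and SNAP proteins take the spent SNARE complexes apart, and clathrin adaptors such as AP180 retrieve the membrane. In bulk tissue, fewer cells of a type and less RNA per cell cannot be told apart.

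The promoters of 30 of the 40 genes were matched by gene ID to RefSeq windows of the GRCm38.p6 build, 41 windows in all, and the 250 bases before each start were read. Their median GC content was 61.2%, against 52.4% over all 32851 windows, with a median of 13 CpG dinucleotides against 6. The GC box GGGCGG, searched on both strands as were the other motifs, lay in 25 of 41 windows (61.0%), against 32.7% of all windows. The TATA box TATAAA lay in 2 of 41 (4.88%, against 12.4% of all windows), both of them windows of Sv2b, and the CCAAT box CCAAT in 10 of 41 (24.4%, against 33.8%). The cAMP response element TGACGTCA and TTCAGCACC, the left part of the RE1 element bound by the repressor REST, which silences neuronal genes in other tissues, each lay in 1 of 41 windows (2.44%), in both cases that of Syn1, against 1.55% and 0.301% of all windows. No motif of the list contains another, and a match is a run of letters, not a bound site. The Syn1 window (chrX:20920919-20921168, minus strand) is shown for these matches, and those of the scaffolds Bsn (chr9:108190384-108190633, minus strand) and Pclo (chr5:14514668-14514917, plus strand) and of the priming factors Unc13a (chr8:71671758-71672007, minus strand) and Unc13c (chr9:73969038-73969287, minus strand) because the members of each pair differed from WT in opposite directions. Capitals mark matches to any of the listed motifs on either strand.
Syn1: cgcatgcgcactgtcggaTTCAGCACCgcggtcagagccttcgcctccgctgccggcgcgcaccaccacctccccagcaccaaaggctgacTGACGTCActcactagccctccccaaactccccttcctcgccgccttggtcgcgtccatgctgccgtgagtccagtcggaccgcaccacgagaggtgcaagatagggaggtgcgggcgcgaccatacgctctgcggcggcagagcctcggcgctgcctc
Bsn: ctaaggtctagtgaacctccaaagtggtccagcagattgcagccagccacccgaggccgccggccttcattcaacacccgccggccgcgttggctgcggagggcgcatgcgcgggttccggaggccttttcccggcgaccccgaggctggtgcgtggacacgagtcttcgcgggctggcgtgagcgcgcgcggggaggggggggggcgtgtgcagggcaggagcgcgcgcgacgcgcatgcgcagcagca
Pclo: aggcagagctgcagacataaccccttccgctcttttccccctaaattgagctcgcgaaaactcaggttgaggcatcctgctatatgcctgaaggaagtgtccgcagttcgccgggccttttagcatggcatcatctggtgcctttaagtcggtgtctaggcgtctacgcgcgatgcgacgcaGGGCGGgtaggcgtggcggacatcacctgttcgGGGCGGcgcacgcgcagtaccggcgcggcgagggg
Unc13a: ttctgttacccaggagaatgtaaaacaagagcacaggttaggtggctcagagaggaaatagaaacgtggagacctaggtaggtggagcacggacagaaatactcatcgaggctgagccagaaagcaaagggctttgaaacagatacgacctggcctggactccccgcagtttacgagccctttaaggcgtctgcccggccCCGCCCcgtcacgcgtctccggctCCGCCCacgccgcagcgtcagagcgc
Unc13c: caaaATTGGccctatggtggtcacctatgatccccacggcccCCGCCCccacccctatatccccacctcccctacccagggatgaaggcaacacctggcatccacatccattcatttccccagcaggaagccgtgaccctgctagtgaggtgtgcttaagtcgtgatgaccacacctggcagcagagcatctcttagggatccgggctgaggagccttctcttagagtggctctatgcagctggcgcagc
The Bsn window held 32 CpG dinucleotides and none of the motifs, while the Pclo window held 25 and 2 GC boxes. The Unc13a window held 18 CpG dinucleotides and 2 GC boxes, against 6 CpG dinucleotides, 1 GC box and 1 CCAAT box in the window of Unc13c.

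The machinery was abundant and its levels were close to constant between libraries. The 40 genes together held 2.02% of all reads in the Ogg1 KO, 1.93% in the Mutyh KO and 1.99% in the DKO library, against 2.06% in WT. Their median level was 64.0 RPKM in the Ogg1 KO, 62.8 in the Mutyh KO and 65.5 in the DKO library, against 71.4 in WT, where the median over all genes compared lay between 9.79 and 10.1 RPKM. The ratio of the highest to the lowest library, after adding 1 RPKM, had a median of 1.13 over the members, from 1.05 for Syt11 to 1.39 for Unc13c, and a median of 1.16 over all genes compared. It stayed under the 25% used as a threshold below for 37 of 40 members (92.5%), against 76.2% of all genes compared, and for 14 of the 15 members over 100 RPKM, against 85.8% of all genes in that class. The exceptions were Cplx1, Pclo and Unc13c. At matched levels the median ratios of members and of all genes were closer. They were 1.22 and 1.19 under 10 RPKM, 1.14 and 1.14 at 10 to 100 RPKM, and 1.12 and 1.13 over 100 RPKM. The shares under the threshold were 88.9% against 66.4% under 10 RPKM and 93.8% against 86.1% at 10 to 100 RPKM. The lowest library was Mutyh KO for 20 members, DKO for 8, Ogg1 KO for 5 and WT for 7, against 20.3%, 24.7%, 24.3% and 30.7% of all genes compared. The highest library was Mutyh KO for 2 members, DKO for 9, Ogg1 KO for 13 and WT for 16, against 25.7%, 19.6%, 28.9% and 25.9% of all genes.

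**Figure D1:**
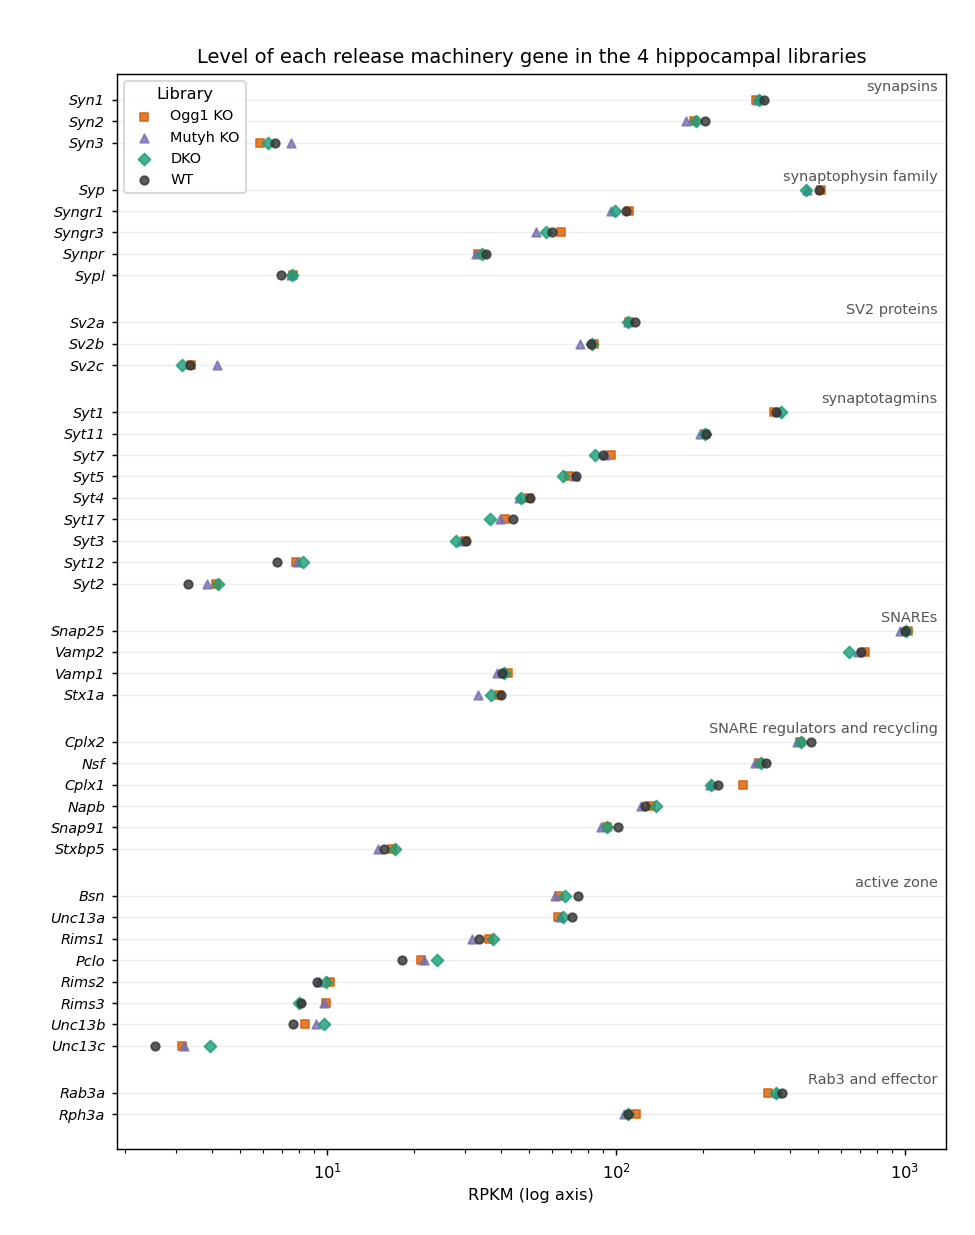
Level in RPKM (log axis) of each of the 40 release machinery genes in the Ogg1 KO, Mutyh KO, DKO and WT libraries, 1 point per library, grouped by role. The points of most genes lie close together over a range of levels from 2.53 RPKM (Unc13c in WT) to 1025 RPKM (Snap25 in Ogg1 KO), and those of Unc13c, Pclo, Sv2c and Cplx1 are spread widest.

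A gene was called higher when RPKM plus 1 was at least 25% above that of the other library, and lower when it was at most 0.8 times as high. In the library labelled Ogg1 KO no member was called against WT, where 6.87% of all genes compared were called higher and 3.57% lower. In Mutyh KO no member was called either, against 8.24% of all genes called higher and 1.92% lower. In the library labelled DKO 2 members were called higher than WT, Unc13c and Pclo, and none lower, against 5.87% of all genes higher and 2.55% lower. Against Ogg1 KO, 1 member was called lower in DKO, Cplx1, and none higher, where 4.88% of all genes were lower and 3.66% higher. Against Mutyh KO no member was called in DKO, where 4.14% of all genes were lower and 1.22% higher. At these settings the shares of members called were thus at or under those of all genes in each comparison. Under some alternative settings, given below, this did not hold for DKO against WT or against Ogg1 KO. Of the 200 ratios of members, 197 lay within these bounds.

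Below that threshold the members were split in direction. The library labelled Ogg1 KO had 22 members above WT and 18 below, with a median log2 ratio of 0.025 against 0.019 over all genes compared. In Mutyh KO 12 were above WT and 28 below, with a median of -0.063 against 0.012. In the library labelled DKO 14 were above WT and 26 below, with a median of -0.061 against -0.0035. DKO stood above Mutyh KO for 30 members and below it for 10, with a median of 0.051 against -0.013, and above Ogg1 KO for 18 and below it for 22, with a median of -0.0097 against -0.017. The 3 comparisons with WT share the WT library.

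**Figure D2:**
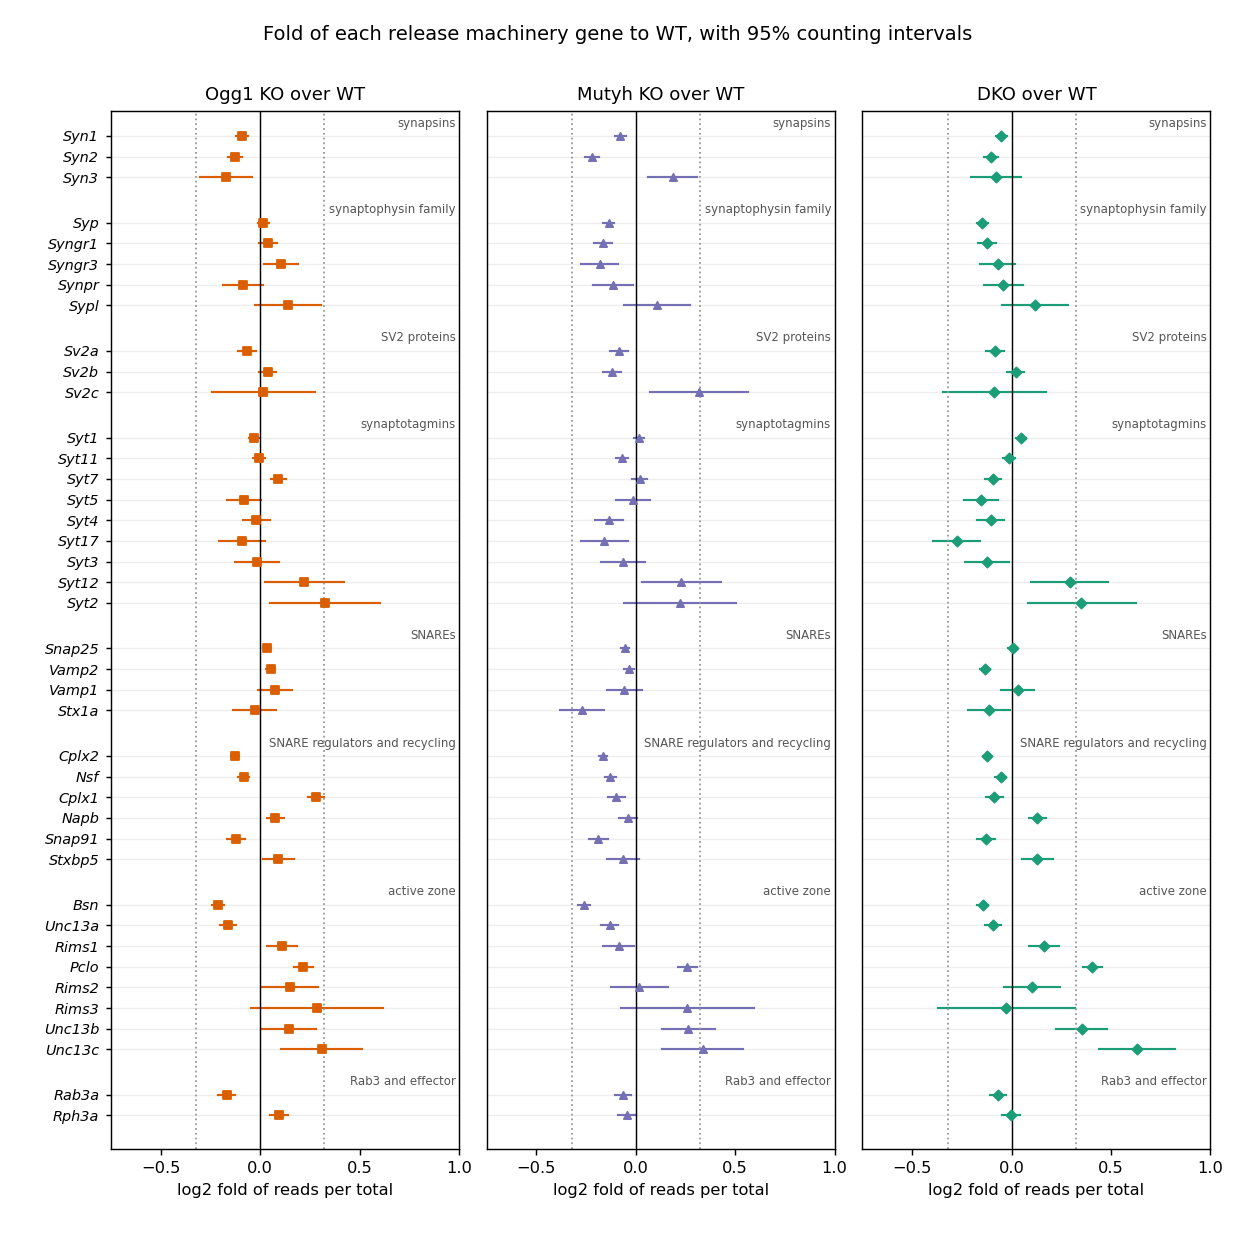
Log2 fold of reads per library total to WT for each of the 40 genes in Ogg1 KO, Mutyh KO and DKO. Horizontal lines are 95% counting intervals, and dotted lines mark folds 25% higher and 0.8 times as high. These folds lack the 1 RPKM added for a call. Syt2 in Ogg1 KO and DKO, Unc13c in Mutyh KO and Unc13b in DKO thus lie past a dotted line without being called. Pclo and Unc13c stand to the right in all 3 panels and furthest in DKO, Bsn stands to the left in all 3, and Cplx1 stands to the right in Ogg1 KO alone of the 3.

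Among the synapsins, which coat vesicles and hold them in clusters, Syn1 made up 61.4% of the summed RPKM in the Ogg1 KO, 62.9% in the Mutyh KO and 61.7% in the DKO library, against 60.8% in WT. Syn2 had 12227 reads (186 RPKM) in the Ogg1 KO, 11554 (174 RPKM) in the Mutyh KO and 13283 (189 RPKM) in the DKO library, against 14208 (203 RPKM) in WT. All 3 knockout libraries lay below WT for Syn2, the lowest being Mutyh KO at 0.859-fold (0.838 to 0.881). Its fold was 0.916-fold (0.894 to 0.938) in Ogg1 KO and 0.931-fold (0.909 to 0.953) in DKO. Syn3, the weakly expressed synapsin, had 875 reads (5.84 RPKM) in the Ogg1 KO, 1127 (7.47 RPKM) in the Mutyh KO and 997 (6.23 RPKM) in the DKO library, against 1048 (6.58 RPKM) in WT. It was high in Mutyh KO, at 1.14-fold (1.04 to 1.24) the WT value, and low in Ogg1 KO, at 0.889-fold (0.811 to 0.973), with DKO between them at 0.947-fold (0.867 to 1.03). Timp3, an inhibitor of matrix metalloproteinases, lies within Syn3 on the other strand and had 2754 reads in the Ogg1 KO, 3118 in the Mutyh KO and 2811 in the DKO library, against 2330 in WT. Whether the counts kept strand is not given in the sources used here, so reads of Timp3 and Syn3 where they overlap cannot be told apart. Syn1 had 304 RPKM in the Ogg1 KO, 308 in the Mutyh KO and 313 in the DKO library, against 325 in WT. Syn1 and Syp lie on the X chromosome, and the Mutyh KO library was the one high in Xist; the part of this in their values was not tested.

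The synaptophysin family, vesicle membrane proteins with a shared fold, was led by Syp, which made up 69.7% to 70.8% of the family's RPKM in the 4 libraries. Syp, the classical marker of the vesicle membrane and a partner of synaptobrevin, had 21543 reads (509.9 RPKM) in the Ogg1 KO, 19522 (459 RPKM) in the Mutyh KO and 20578 (455 RPKM) in the DKO library, against 22679 (504 RPKM) in WT. The values fell into a higher pair, Ogg1 KO and WT, and a lower pair, Mutyh KO and DKO. Its fold to WT was 1.01-fold (0.992 to 1.03) in the Ogg1 KO, 0.9096-fold (0.892 to 0.927) in the Mutyh KO and 0.903-fold (0.886 to 0.920) in the DKO library. Syngr1 and Syngr3, the synaptogyrins, were below WT in Mutyh KO, at 0.891 and 0.882 of WT. Synpr, synaptoporin of mossy fibre terminals, was between 0.923 and 0.971 of WT in the knockout libraries, and Sypl, a family member found in many tissues, between 1.08 and 1.10.

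SV2 proteins are transporter-like glycoproteins of the vesicle membrane, and SV2A binds the antiepileptic drug levetiracetam. Sv2a made up 56.1% to 58.1% of their summed RPKM and Sv2b 39.7% to 42.3%. Sv2c, the weakly expressed member, had 244 reads (3.37 RPKM) in the Ogg1 KO, 303 (4.16 RPKM) in the Mutyh KO and 243 (3.14 RPKM) in the DKO library, against 257 (3.34 RPKM) in WT. Mutyh KO was the high library and the other 3 lay close together, with folds to WT of 1.01-fold (0.845 to 1.21) in the Ogg1 KO, 1.246-fold (1.05 to 1.48) in the Mutyh KO and 0.941-fold (0.786 to 1.13) in the DKO library. Against Mutyh KO, Sv2c in DKO was at 0.755-fold (0.635 to 0.897). Sv2a and Sv2b stayed between 0.921 and 1.03 of WT in the 3 knockout libraries.

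Synaptotagmins bind membranes and in part calcium, and Syt1, the sensor for fast release in forebrain neurons, made up 41.2% to 43.8% of the RPKM of the 9 measured here. Syt1 had 22657 reads (351 RPKM) in the Ogg1 KO, 23550 (363 RPKM) in the Mutyh KO and 25570 (371 RPKM) in the DKO library, against 24624 (359 RPKM) in WT. The highest library, DKO, was 1.06-fold the lowest, Ogg1 KO, in RPKM. Its fold to WT was 0.979-fold (0.962 to 0.997) in the Ogg1 KO, 1.01-fold (0.993 to 1.03) in the Mutyh KO and 1.03-fold (1.02 to 1.05) in the DKO library. Syt11, which lacks calcium binding, held a further 23.0% to 24.0% of the RPKM and varied least of all 40 genes, from 0.953 to 0.995 of WT. Syt2, the fast sensor that prevails in the hindbrain and in some inhibitory terminals, was weak, with 238 reads (4.13 RPKM) in the Ogg1 KO, 223 (3.84 RPKM) in the Mutyh KO and 259 (4.20 RPKM) in the DKO library, against 202 (3.29 RPKM) in WT. WT was the lowest library, and the folds to it were 1.254-fold (1.04 to 1.52) in the Ogg1 KO, 1.17-fold (0.960 to 1.42) in the Mutyh KO and 1.28-fold (1.06 to 1.54) in the DKO library.

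Syt12, a synaptotagmin without calcium binding, had 436 reads (7.82 RPKM) in the Ogg1 KO, 441 (7.85 RPKM) in the Mutyh KO and 490 (8.21 RPKM) in the DKO library, against 398 (6.70 RPKM) in WT. WT was again the lowest of the 4 libraries and DKO the highest. The folds to WT were 1.17-fold (1.02 to 1.34) in the Ogg1 KO, 1.17-fold (1.02 to 1.34) in the Mutyh KO and 1.23-fold (1.07 to 1.40) in the DKO library. Syt17, also called B/K protein, ran the other way, with 1142 reads (41.3 RPKM) in the Ogg1 KO, 1100 (39.5 RPKM) in the Mutyh KO and 1077 (36.5 RPKM) in the DKO library, against 1297 (44.1 RPKM) in WT. WT was its highest library and DKO its lowest, at 0.827-fold (0.762 to 0.897) of WT, with 0.937-fold (0.865 to 1.02) in Ogg1 KO and 0.896-fold (0.826 to 0.972) in Mutyh KO. Syt7, a sensor linked to asynchronous release and facilitation, was at 1.07 of WT in the Ogg1 KO, 1.01 in the Mutyh KO and 0.938 in the DKO library. Syt3, Syt4 and Syt5 lay between 0.899 and 0.989 of WT in every knockout library.

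Of the 4 core SNARE genes, Snap25 and Vamp2 were the most abundant members, while Vamp1 and Stx1a ranked 24 and 26 of 40. Snap25, a SNARE of the plasma membrane, had 37236 reads (1025 RPKM) in the Ogg1 KO, 35230 (962 RPKM) in the Mutyh KO and 39021 (1004 RPKM) in the DKO library, against 38707 (1001 RPKM) in WT. It made up 17.0% of the summed RPKM of the 40 genes in the Ogg1 KO, 16.8% in the Mutyh KO and 17.2% in the DKO library, against 16.5% in WT, and ranked 6, 11 and 9 among all genes in the knockout libraries and 9 in WT. The highest library was 1.06-fold the lowest in RPKM, with folds to WT of 1.02-fold (1.01 to 1.04) in the Ogg1 KO, 0.962-fold (0.948 to 0.976) in the Mutyh KO and 1.003-fold (0.989 to 1.02) in the DKO library. Vamp2, the vesicle SNARE synaptobrevin of forebrain synapses, had 26842 reads (729 RPKM) in the Ogg1 KO, 25471 (686 RPKM) in the Mutyh KO and 25262 (641 RPKM) in the DKO library, against 27551 (703 RPKM) in WT. DKO was its lowest library, at 0.913-fold (0.897 to 0.928) of WT, with 1.04-fold (1.02 to 1.05) in Ogg1 KO and 0.977-fold (0.960 to 0.994) in Mutyh KO. Vamp1, the other synaptobrevin, had 42.3 RPKM in the Ogg1 KO, 38.5 in the Mutyh KO and 41.0 in the DKO library, against 40.1 in WT.

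Stx1a, the syntaxin that pairs with SNAP-25, had 1384 reads (39.3 RPKM) in the Ogg1 KO, 1178 (33.2 RPKM) in the Mutyh KO and 1395 (37.0 RPKM) in the DKO library, against 1502 (40.03 RPKM) in WT. Mutyh KO was the low library, at 0.829-fold (0.767 to 0.895) of WT, the lowest log2 ratio of the 40 genes in that comparison. In Ogg1 KO Stx1a was at 0.981-fold (0.911 to 1.06) and in DKO at 0.924-fold (0.859 to 0.995). All 4 SNARE genes lay below WT in Mutyh KO, and 3 of 4 lay above it in Ogg1 KO.

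Among the SNARE regulators, Cplx1 and Cplx2 encode complexins, small proteins that clamp the assembled SNARE complex and promote its triggered fusion. Cplx1 had 10337 reads (274 RPKM) in the Ogg1 KO, 8009 (211 RPKM) in the Mutyh KO and 8573 (212 RPKM) in the DKO library, against 9057 (225 RPKM) in WT. The library labelled Ogg1 KO was high and the other 3 lay close together. Its fold to WT was 1.21-fold (1.18 to 1.2496) in the Ogg1 KO, 0.934-fold (0.907 to 0.963) in the Mutyh KO and 0.942-fold (0.915 to 0.971) in the DKO library, and DKO was at 0.776-fold (0.754 to 0.798) of Ogg1 KO, past the threshold for a call. Cplx2, the more abundant complexin of the hippocampus, had 36389 reads (434 RPKM) in the Ogg1 KO, 35608 (422 RPKM) in the Mutyh KO and 39003 (435 RPKM) in the DKO library, against 42224 (473 RPKM) in WT. Here WT was the high library, and the folds were 0.917-fold (0.904 to 0.930) in the Ogg1 KO, 0.891-fold (0.879 to 0.904) in the Mutyh KO and 0.919-fold (0.907 to 0.932) in the DKO library. Complexin 1 prevails in inhibitory neurons, and of the 10 interneuron markers, whose summed level was 971 RPKM in the Ogg1 KO, 822 in the Mutyh KO and 814 in the DKO library, against 894 in WT, 7 were above WT in Ogg1 KO and 3 of the 10 were called higher, against 6.87% of all genes. In Mutyh KO 1 marker was called higher, and in DKO 1 higher and 1 lower (Sst). Pvalb and Kcnc1, which both mark fast-spiking interneurons, were the highest and the lowest of the list in Ogg1 KO. Pvalb had 438 reads in the Ogg1 KO, 268 in the Mutyh KO and 298 in the DKO library, against 284 in WT. Kcnc1 had 4332 reads in the Ogg1 KO, 4416 in the Mutyh KO and 4750 in the DKO library, against 5132 in WT, at 0.898-fold (0.863 to 0.936) of WT in Ogg1 KO, and Gad1 had 5662 reads in the Ogg1 KO, 5621 in the Mutyh KO and 5424 in the DKO library, against 6187 in WT. Slc32a1, the vesicular transporter of inhibitory terminals, was at 0.701 of WT there. No interneuron marker was at 0 in a library, and the part of these cells in the Cplx1 values was not tested.

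Snap91, the clathrin adaptor AP180 that sets the size of retrieved vesicles, had 6750 reads (93.1 RPKM) in the Ogg1 KO, 6490 (88.9 RPKM) in the Mutyh KO and 7191 (92.7 RPKM) in the DKO library, against 7819 (101 RPKM) in WT. WT was the highest library and Mutyh KO the lowest. The folds to WT were 0.919-fold (0.889 to 0.949) in the Ogg1 KO, 0.877-fold (0.849 to 0.907) in the Mutyh KO and 0.915-fold (0.886 to 0.945) in the DKO library. Nsf, the ATPase that takes SNARE complexes apart, was at 0.944, 0.914 and 0.963 of WT in Ogg1 KO, Mutyh KO and DKO. Its cofactor Napb, beta-SNAP, was at 1.05, 0.973 and 1.09, and Stxbp5, tomosyn, which binds syntaxin and limits fusion, at 1.07, 0.955 and 1.09. All 6 regulators were below WT in Mutyh KO and above Mutyh KO in DKO.

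The 8 active zone genes included both members called higher in DKO than in WT. Pclo encodes Piccolo, a giant scaffold of the presynaptic cytomatrix, and had 7216 reads (21.1 RPKM) in the Ogg1 KO, 7476 (21.7 RPKM) in the Mutyh KO and 8805 (24.1 RPKM) in the DKO library, against 6609 (18.1 RPKM) in WT. WT was the lowest library and DKO the highest. The folds to WT were 1.16-fold (1.12 to 1.202) in the Ogg1 KO, 1.195-fold (1.16 to 1.24) in the Mutyh KO and 1.33-fold (1.28 to 1.37) in the DKO library, and DKO was at 1.14-fold (1.11 to 1.18) of Ogg1 KO and 1.11-fold (1.08 to 1.14) of Mutyh KO. Bsn encodes Bassoon, the related giant scaffold, and had 17279 reads (63.6 RPKM) in the Ogg1 KO, 16832 (61.5 RPKM) in the Mutyh KO and 19357 (66.7 RPKM) in the DKO library, against 21318 (73.8 RPKM) in WT. It stood opposite to Pclo, with WT the highest library. The folds to WT were 0.863-fold (0.845 to 0.880) in the Ogg1 KO, 0.834-fold (0.818 to 0.851) in the Mutyh KO and 0.904-fold (0.886 to 0.922) in the DKO library.

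The Munc13 priming factors split in the same way. Unc13c, Munc13-3, known mainly from the cerebellum, was the weakest member, with 431 reads (3.13 RPKM) in the Ogg1 KO, 442 (3.19 RPKM) in the Mutyh KO and 576 (3.92 RPKM) in the DKO library, against 370 (2.53 RPKM) in WT. WT was lowest, the single knockouts were near each other, and DKO was highest. Its folds to WT were 1.24-fold (1.08 to 1.43) in the Ogg1 KO, 1.26-fold (1.10 to 1.45) in the Mutyh KO and 1.55-fold (1.36 to 1.77) in the DKO library, and DKO was at 1.2499-fold (1.10 to 1.42) of Ogg1 KO and 1.23-fold (1.08 to 1.39) of Mutyh KO. Unc13b, Munc13-2, which serves a subset of hippocampal synapses, had 912 reads (8.40 RPKM) in the Ogg1 KO, 998 (9.13 RPKM) in the Mutyh KO and 1127 (9.71 RPKM) in the DKO library, against 878 (7.60 RPKM) in WT. The libraries stood in the same order, at 1.11-fold (1.01 to 1.21) of WT in the Ogg1 KO, 1.201-fold (1.10 to 1.32) in the Mutyh KO and 1.28-fold (1.17 to 1.40) in the DKO library. Unc13a, Munc13-1, the main priming factor of glutamatergic synapses, was highest in WT, at 0.894, 0.912 and 0.937 of it in Ogg1 KO, Mutyh KO and DKO.

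RIM proteins tie vesicle-bound Rab3 to Munc13 and to calcium channels. Rims1 had 2712 reads (36.3 RPKM) in the Ogg1 KO, 2383 (31.6 RPKM) in the Mutyh KO and 3005 (37.6 RPKM) in the DKO library, against 2675 (33.6 RPKM) in WT. Mutyh KO was the lowest library and DKO the highest. The folds to WT were 1.08-fold (1.02 to 1.14) in the Ogg1 KO, 0.941-fold (0.890 to 0.995) in the Mutyh KO and 1.12-fold (1.06 to 1.18) in the DKO library, and DKO was at 1.19-fold (1.13 to 1.254) of Mutyh KO. Rims3, a short RIM that keeps only the C-terminal part, had 165 reads (9.92 RPKM) in the Ogg1 KO, 163 (9.73 RPKM) in the Mutyh KO and 142 (7.98 RPKM) in the DKO library, against 144 (8.14 RPKM) in WT. Both single knockouts were high and both DKO and WT low, but with so few reads the intervals for the folds to WT hold 1 in each library: 1.22-fold (0.969 to 1.54) in the Ogg1 KO, 1.196-fold (0.95003 to 1.51) in the Mutyh KO and 0.982-fold (0.773 to 1.246) in the DKO library. Rims2 lay between 1.01 and 1.11 of WT in the knockout libraries.

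Rab3a, the small GTPase of synaptic vesicles, had 334 RPKM in the Ogg1 KO, 359 in the Mutyh KO and 359 in the DKO library, against 376 in WT. It was at 0.890 of WT in the Ogg1 KO, 0.956 in the Mutyh KO and 0.954 in the DKO library. Its effector Rph3a, rabphilin, was at 1.07, 0.969 and 0.998. The effector and the GTPase stood on opposite sides of WT in Ogg1 KO.

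Ratios between paralogs within a library do not depend on how libraries are scaled. Bsn over Pclo, on the RPKM scale, was 3.02 (2.93 to 3.10) in the Ogg1 KO, 2.84 (2.76 to 2.92) in the Mutyh KO and 2.77 (2.70 to 2.84) in the DKO library, against 4.06 (3.95 to 4.18) in WT. The 3 knockout libraries lay close to each other and apart from WT, by far more than counting error. Unc13b over Unc13a was 0.134 (0.125 to 0.144) in the Ogg1 KO, 0.143 (0.134 to 0.152) in the Mutyh KO and 0.148 (0.139 to 0.157) in the DKO library, against 0.108 (0.101 to 0.116) in WT. Unc13c over Unc13a was 0.0500 (0.0453 to 0.0551) in the Ogg1 KO, 0.0499 (0.0452 to 0.0549) in the Mutyh KO and 0.0596 (0.0547 to 0.0648) in the DKO library, against 0.0360 (0.0324 to 0.0400) in WT. For both Munc13 ratios WT was the lowest library, and its interval did not meet that of any knockout library. Cplx2 over Cplx1 was 1.58 (1.55 to 1.62) in the Ogg1 KO, 2.001 (1.95 to 2.05) in the Mutyh KO and 2.05 (2.001 to 2.10) in the DKO library, against 2.10 (2.05 to 2.15) in WT. Here the library labelled Ogg1 KO stood apart and the other 3 lay close together. Syn2 over Syn3 was 31.8 in the Ogg1 KO, 23.3 in the Mutyh KO and 30.3 in the DKO library, against 30.8 in WT, so Mutyh KO stood apart. Syt1 over Syt7 was 3.65 in the Ogg1 KO, 3.96 in the Mutyh KO and 4.38 in the DKO library, against 3.97 in WT, and Rims1 over Rims2 3.54 in the Ogg1 KO, 3.38 in the Mutyh KO and 3.79 in the DKO library, against 3.64 in WT, where the libraries were less apart.

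**Figure D3:**
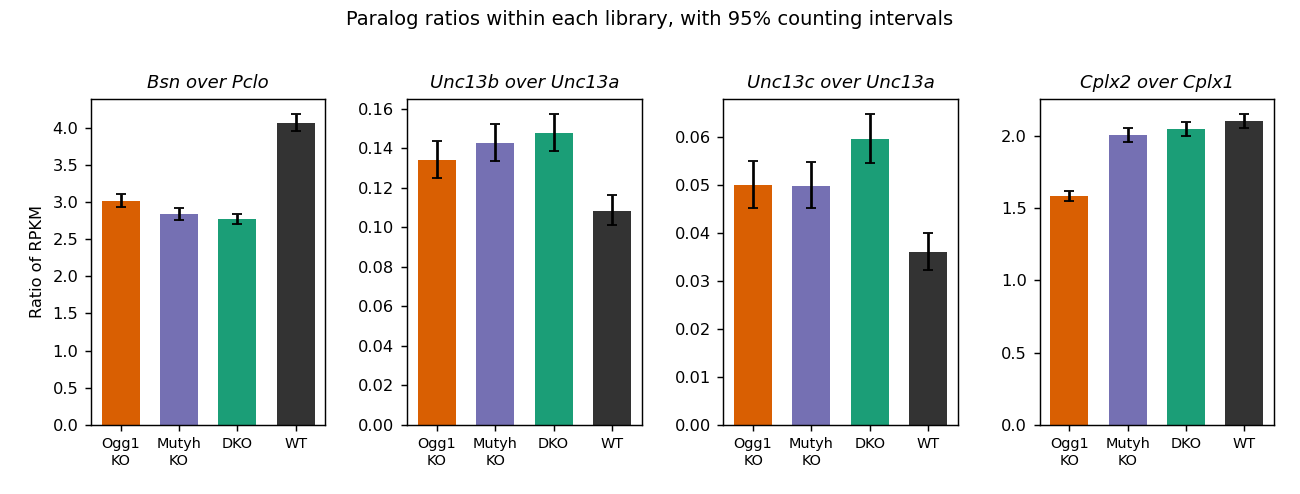
Ratio of RPKM between paralogs in the Ogg1 KO, Mutyh KO, DKO and WT libraries for Bsn over Pclo, Unc13b over Unc13a, Unc13c over Unc13a and Cplx2 over Cplx1; bars start at 0 and error bars are 95% counting intervals. WT stands apart from the 3 knockout libraries in the ratios with Pclo, Unc13b and Unc13c, and Ogg1 KO stands apart in the complexin ratio.

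Long genes as a class were higher in the knockout libraries, a pattern looked for after the values of Pclo and Unc13c had been seen. The tables give Pclo a length of 20099 bases, Bsn 15953 and Unc13c 8081. Over the 21 genes of at least 16000 bases compared, the median log2 ratio to WT was 0.13 in the Ogg1 KO, 0.22 in the Mutyh KO and 0.26 in the DKO library, and over the 521 genes of 8000 to 16000 bases it was 0.11, 0.14 and 0.13. Pclo lay above the median of its class, at 0.21, 0.25 and 0.39. Unc13c lay further above its own, at 0.23, 0.25 and 0.48, while Bsn, of the same class as Unc13c, was at -0.21, -0.26 and -0.14. In the class of 8000 to 16000 bases 12.7% of genes were called higher in DKO than in WT. Of the 21 genes of at least 16000 bases, the class of Pclo, 23.8% were. Reads covered 96.6% of the length of Pclo in the Ogg1 KO, 97.0% in the Mutyh KO and 98.2% in the DKO library, against 90.5% in WT. The median coverage of genes of at least 16000 bases was 75.7% in the Ogg1 KO, 82.8% in the Mutyh KO and 85.2% in the DKO library, against 70.7% in WT. In the class of Unc13c, 8000 to 16000 bases, the median coverage ranged only from 94.87% in WT to 96.17% in DKO. Unc13c itself was covered to 82.71% in the Ogg1 KO, 87.03% in the Mutyh KO and 92.46% in the DKO library, against 82.08% in WT. Median coverage thus moved with the ratios in the class of Pclo, and little in that of Unc13c. Coverage rises with the number of reads, so it is not independent of these ratios. Its part in the values of Pclo and Unc13c was not tested.

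**Figure D4:**
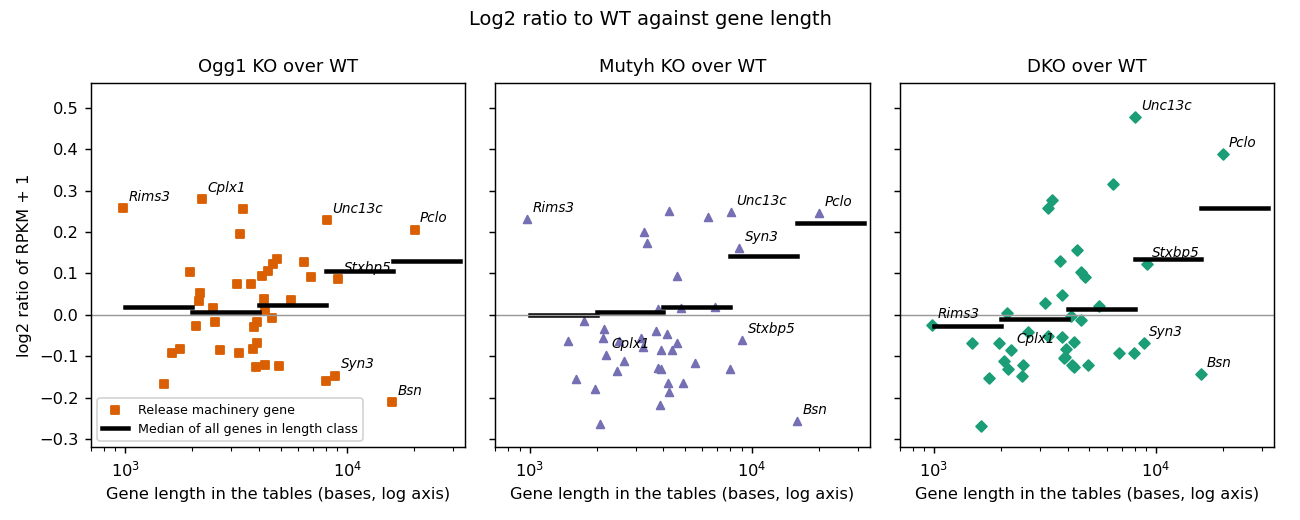
Log2 ratio of RPKM plus 1 to WT against gene length in bases (log axis) for the release machinery genes in Ogg1 KO, Mutyh KO and DKO; black bars are medians of all genes compared in each length class. The bars of the 2 longest classes lie above 0 in each panel, Pclo and Unc13c lie above them, and Bsn lies below 0 in each.

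Weakly and strongly expressed members differed in direction in Mutyh KO, and less clearly in the other libraries. Of the 15 members over 100 RPKM, 8 were below WT in Ogg1 KO and 7 above, 14 were below WT in Mutyh KO, all but Syt1, and 12 were below WT in DKO, all but Syt1, Snap25 and Napb. Syt1 in Mutyh KO, at 1.01 of WT, and Snap25 in DKO, at 1.003, were below WT too under median-of-ratios and TMM scaling. Of all 520 genes in that class, 45.4% were above WT in the Ogg1 KO, 23.5% in the Mutyh KO and 23.8% in the DKO library. Of the 9 members under 10 RPKM, 8 were above WT in the Ogg1 KO, 9 in the Mutyh KO and 6 in the DKO library, where 59.0%, 65.3% and 58.7% of all genes in that class were. In Mutyh KO the class had a median log2 ratio of 0.20 for the members and 0.069 for all its genes. These 9 are Syn3, Sypl, Sv2c, Syt2, Syt12, Unc13b, Unc13c, Rims2 and Rims3. Across the 40 genes, Pearson's r between the log2 ratio to WT and the log2 mean level was -0.43 in the Ogg1 KO, -0.65 in the Mutyh KO and -0.53 in the DKO library. Over all genes compared it was -0.083, -0.24 and -0.19. These are descriptions over genes of the same libraries, and the same low counts enter both axes. The median of abundant members in Mutyh KO, -0.077, was near that of all genes over 100 RPKM, -0.073. In the class between, 10 to 100 RPKM, it was not. Of its 16 members, 9 were below WT in the Ogg1 KO, 14 in the Mutyh KO and 11 in the DKO library. Of all genes in that class, 50.5%, 42.2% and 41.1% were above WT. In Mutyh KO the class had a median of -0.115 for the members and -0.028 for all its genes.

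Each loss was seen in 2 backgrounds through pairs of libraries that share none. For each loss, however, a pair includes the Mutyh KO library, which had 10307 reads of Xist against 14 in WT and 29 in DKO. In those pairs the loss and the difference in Xist cannot be told apart. For the loss of Ogg1, Ogg1 KO over WT and DKO over Mutyh KO, 22 of 40 members differed in the same direction (55%), 17 higher in both and 5 lower, against 46.5% of all genes compared. For the loss of Mutyh, Mutyh KO over WT and DKO over Ogg1 KO, 24 of 40 did (60%), 7 higher and 17 lower, against 51.7% of all genes. Pearson's r over the 40 genes was 0.15 for Ogg1 loss and 0.28 for Mutyh loss, against -0.19 and -0.0082 over all genes compared, as a description over genes measured in the same libraries. Unc13c, Pclo, Unc13b, Syt2 and Syt12 were higher in both pairs for both losses. Syt3, Syt5 and Syt17 were lower in both pairs for both losses. Syt17 was at 0.937 and 0.922 for Ogg1 loss and 0.896 and 0.882 for Mutyh loss. Of all these genes, only Unc13c and Pclo had counting intervals clear of 1 in every pair. Being higher in every pair amounts to WT lowest and DKO highest, and being lower to the reverse. The share of all genes compared with either order was not computed, so neither list can be called particular to the members.

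The difference between backgrounds, the log2 fold of a loss in the null background minus that in the intact background, is the same number for both losses. For Bsn it was 0.33 (0.29 to 0.37), with a 95% counting interval from the normal approximation, since each single knockout was below WT while DKO was above both single knockouts. For Cplx1 it was -0.27 (-0.33 to -0.21), for Sv2c -0.42 (-0.77 to -0.069) and for Rims3 -0.57 (-1.03 to -0.11). Cplx1, Sv2c and Rims3 thus stood above WT in at least 1 single knockout and did not in DKO. Unc13c and Pclo had -0.014 (-0.28 to 0.25) and -0.067 (-0.13 to -0.0013), so their DKO values lay close to the sum of the single knockouts on the log2 scale.

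**Figure D5:**
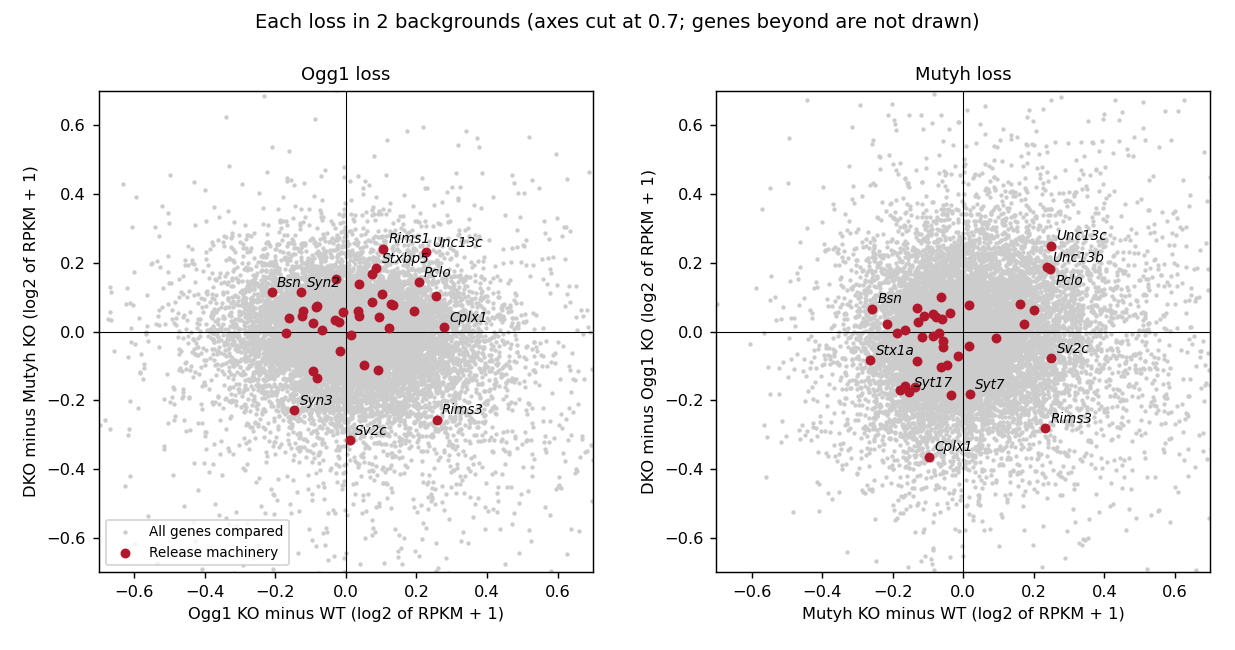
Log2 ratio of RPKM plus 1 for the loss of Ogg1 (left) and of Mutyh (right), in the background with the other gene intact (x axis) and in its absence (y axis); red points are the 40 release machinery genes and grey points all genes compared. Unc13c, Pclo, Unc13b, Syt2 and Syt12 lie in the upper right quadrant of both panels, Bsn in the upper left, and Cplx1 and Rims3 low on the right-hand panel.

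Other genes of the release pathway were compared in 5 lists by function. Of 19 further genes of fusion and calcium sensing, 3 were called higher in the Ogg1 KO, 2 in the Mutyh KO and 1 in the DKO library, against 6.87%, 8.24% and 5.87% of all genes compared, and none lower, with medians of 0.046, -0.11 and -0.050. The highest in Ogg1 KO was Syt10, at 1.51-fold (1.16 to 1.964), and in the other knockouts Syt14, at 1.64-fold (1.18 to 2.29) in Mutyh KO and 1.59-fold (1.15 to 2.22) in DKO. The lowest was Doc2b, a calcium sensor for spontaneous release, at 0.865-fold (0.818 to 0.913) in Ogg1 KO and 0.819-fold (0.775 to 0.866) in Mutyh KO, and Syt6 in DKO, at 0.788-fold (0.641 to 0.968). Syt6 was also the lowest in DKO against Ogg1 KO, at 0.635-fold (0.520 to 0.774), and against Mutyh KO, at 0.612-fold (0.502 to 0.745), while Syt16 and Napg were the highest there, at 1.04-fold (0.947 to 1.15) and 1.15-fold (1.09 to 1.22).

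Of 21 further genes of the active zone and priming, none was called higher against WT, and 1, 1 and 1 were called lower in Ogg1 KO, Mutyh KO and DKO, against 3.57%, 1.92% and 2.55% of all genes. Rab3b, a paralog of Rab3a, had 899 reads (15.9 RPKM) in the Ogg1 KO, 695 (12.2 RPKM) in the Mutyh KO and 551 (9.12 RPKM) in the DKO library, against 976 (16.2 RPKM) in WT. Its values were graded, with DKO lowest, at 0.562-fold (0.505 to 0.624) of WT, and Mutyh KO at 0.752-fold (0.682 to 0.830); against the single knockouts DKO was at 0.573-fold (0.515 to 0.638) of Ogg1 KO and 0.747-fold (0.667 to 0.836) of Mutyh KO. Rab3c stood opposite, highest of the list in DKO at 1.15-fold (1.12 to 1.18) of WT and 1.24-fold (1.21 to 1.28) of Ogg1 KO. Rab3d was the lowest in Ogg1 KO, at 0.725-fold (0.615 to 0.852), and Rims4 the highest, at 1.22-fold (0.979 to 1.51). The highest in Mutyh KO was Rab3gap1, at 1.04-fold (0.972 to 1.11), and in DKO against Mutyh KO Erc1, an ELKS scaffold, at 1.19-fold (1.11 to 1.27). Rab3b and Rab3c thus stood on opposite sides of WT in DKO. In Ogg1 KO the Rab3 genes shared a direction, all below WT. There Rab3a was at 334 RPKM against 376, Rab3b at 15.9 against 16.2, Rab3c at 61.4 against 66.6 and Rab3d at 3.86 against 5.32.

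Of 15 further genes listed, mostly of vesicle membrane proteins and chaperones, 14 were compared, and the highest in Ogg1 KO was Sncb. Sncb, beta-synuclein, had 7399 reads (359 RPKM) in the Ogg1 KO, 5653 (272 RPKM) in the Mutyh KO and 5779 (262 RPKM) in the DKO library, against 6284 (287 RPKM) in WT. It was high in the library labelled Ogg1 KO, as Cplx1 was, at 1.253-fold (1.21 to 1.30) of WT, and DKO was at 0.730-fold (0.706 to 0.756) of Ogg1 KO. Sncg was high in Mutyh KO at 1.42-fold (1.06 to 1.91), on 110 reads against 82 in WT. Svop, a vesicle transporter-like protein, was lowest in Mutyh KO, at 0.772-fold (0.729 to 0.818). In DKO Syngr2 was highest, at 1.23-fold (1.01 to 1.495). Synpo, which is in the list but does not encode a vesicle protein, was lowest there, at 0.849-fold (0.816 to 0.883). The list had 1 gene called higher and 0 lower in Ogg1 KO, 1 and 1 in Mutyh KO, and none in DKO, where all genes compared had 6.87% higher and 3.57% lower, 8.24% and 1.92%, and 5.87% and 2.55%.

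Endocytosis genes, 25 in all, lay mostly below WT: 15 in the Ogg1 KO, 18 in the Mutyh KO and 19 in the DKO library, against 45.4%, 47.0% and 50.7% of all genes compared, with medians of -0.072, -0.094 and -0.077. None was called against WT in Ogg1 KO or Mutyh KO and 2 of 25 were called lower in DKO, where 2.55% of all genes were, among them Sh3gl3, an endophilin, at 0.770-fold (0.679 to 0.874), which was also the lowest in DKO against Ogg1 KO, at 0.704-fold (0.621 to 0.798). The scaffold Itsn2 was highest in Mutyh KO and DKO, at 1.10-fold (1.02 to 1.19) and 1.13-fold (1.05 to 1.22), and the clathrin light chain gene Cltb in Ogg1 KO, at 1.12-fold (1.05 to 1.19). The lowest were the adaptor gene Ap2a2 in Ogg1 KO, at 0.867-fold (0.837 to 0.898), and the endophilin gene Sh3gl2 in Mutyh KO, at 0.823-fold (0.792 to 0.855).

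Of 20 genes of transmitter loading and the vesicular proton pump compared, of 22 listed, 16 lay below WT in Mutyh KO and 16 in DKO, with medians of -0.094 and -0.079, and 12 in Ogg1 KO, with -0.047, beside the same shares of all genes. Slc17a6, the vesicular glutamate transporter of thalamic and other subcortical neurons, was the highest against WT in each library, with 320 reads (4.33 RPKM) in the Ogg1 KO, 369 (4.96 RPKM) in the Mutyh KO and 397 (5.03 RPKM) in the DKO library, against 263 (3.35 RPKM) in WT. WT was its lowest library, at folds of 1.29-fold (1.10 to 1.53) in the Ogg1 KO, 1.48-fold (1.26 to 1.74) in the Mutyh KO and 1.502-fold (1.28 to 1.76) in the DKO library. Slc32a1, the vesicular transporter of GABA and glycine, was the lowest in each, with 1318 reads (27.6 RPKM) in the Ogg1 KO, 1621 (33.7 RPKM) in the Mutyh KO and 1487 (29.1 RPKM) in the DKO library, against 2002 (39.4 RPKM) in WT. WT was its highest library, at folds of 0.701-fold (0.653 to 0.751) in the Ogg1 KO, 0.856-fold (0.801 to 0.914) in the Mutyh KO and 0.739-fold (0.691 to 0.791) in the DKO library. Slc17a7, the main glutamate transporter of hippocampal vesicles, was at 0.959, 0.859 and 0.908 of WT, close to the abundant members of the machinery.

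Marker lists of neurons and of other cells differed between the libraries as well. The 14 pan-neuronal genes had median log2 ratios to WT of 0.045 in the Ogg1 KO, -0.056 in the Mutyh KO and -0.037 in the DKO library, with summed levels of 2423, 2299 and 2277 RPKM against 2350 in WT, near the medians of the release machinery in each library. The thalamus and habenula list, 10 of 11 genes compared, had medians of 0.023, 0.31 and 0.29 and summed to 73.1, 91.4 and 74.5 RPKM against 77.7 in WT, with 2 genes called higher and 1 lower in Ogg1 KO, 4 and 0 in Mutyh KO, and 4 and 2 in DKO, beside the shares of all genes given above. The 9 oligodendrocyte genes had medians of 0.14, 0.17 and 0.021, and the 9 astrocyte genes -0.039, 0.10 and 0.080. In Mutyh KO and DKO the medians of these 3 lists were above 0, while those of the release machinery were below 0. Other lists were mixed. For dentate granule cell genes the medians in Ogg1 KO, Mutyh KO and DKO were -0.19, 0.019 and -0.051. For CA1 they were -0.054, -0.12 and 0.048, and for CA2 and CA3 -0.067, -0.053 and 0.00078. Microglia genes had -0.073, -0.016 and 0.055, and striatum genes 0.14, 0.11 and -0.027. Endothelial genes had 0.15, 0.17 and 0.20, and interneuron genes 0.083, -0.052 and -0.065. No marker of these lists was at 0 in a library, and their part in the values of the release machinery was not tested.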

How the data were processed

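The members and gene lists were chosen with earlier results of these data known. Per the labels' protocols, total RNA of whole hippocampus was isolated on RNeasy columns, its quality was read on a Bioanalyzer, and libraries were made with standard Illumina reagents. The mouse build was mm9, per the submitters' processing notes; the aligner, the counter, the annotation and whether strand was kept are not given in the sources used here. The authors deposited for each gene, per the file headers, the count of unique reads, the gene length in bases, the coverage as a percent of that length, and RPKM. The deposited RPKM could be recomputed from count, length and the total in the header, which is the sum of the listed counts. Genes not listed in a library were taken as 0. Rows that name no symbol took 0.0179% to 0.0195% of reads and stayed in under the gene ID.

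Computed from these values were log2 ratios of RPKM after adding 1 RPKM, which understate differences of weakly expressed genes, and folds of the share of reads, each with a conditional Clopper-Pearson 95% interval (SciPy 1.17.1). These intervals, and the floor of 3 reads set for a count of 0, cover counting error only. Genes with a mean of at least 1 RPKM were compared, and a gene at least 25% higher, or at most 0.8 times as high, was called. Values in every library are given for the 15 members with the largest absolute ratio in any comparison, the 5 most abundant and all that were called, and for the other pathway lists for the genes with the highest and the lowest ratio; 1 such gene is not reported here. The calculation was tested on simulated data. Alternatives were median-of-ratios and TMM scaling (edgeR 4.0.16), library totals without ribosomal RNA, pseudocounts of 0.1 and 5 RPKM, and a filter of 5 RPKM or none. Motifs were searched in RefSeq promoter windows of GRCm38.p6, a build other than that of the files, matched by gene ID. Protein sequences were not used here.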

Additional observations from a re-analysis of the deposited data

Results flagged for a closer look

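For 13 values the direction of a loss differed between its 2 backgrounds while both counting intervals excluded 1. With 1 library per genotype these differences were not tested, and most are within 10% of 1 on either side. The same count was not made over all genes compared, and counting intervals are narrowest for genes with many reads. Regardless of intervals, directions were opposite for 18 of 40 members and 7051 of 13186 genes for Ogg1 loss. For Mutyh loss they were opposite for 16 of 40 members and 6367 of 13186 genes.

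For the loss of Ogg1 (DKO over Mutyh KO, then Ogg1 KO over WT), the scaffold gene Bsn was at 1.08 and 0.863, the synapsin Syn2 at 1.08 and 0.916, and the complexin Cplx2 at 1.03 and 0.917. Snap91 was at 1.04 and 0.919, Nsf at 1.05 and 0.944, and Syt1 at 1.02 and 0.979. In these 6 genes Ogg1 KO was below WT and DKO above Mutyh KO. The opposite held for Syt7, at 0.925 and 1.07, and for Vamp2, at 0.934 and 1.04.

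For the loss of Mutyh (DKO over Ogg1 KO, then Mutyh KO over WT), Bsn was at 1.05 and 0.834, the priming factor Unc13a at 1.05 and 0.912, and Nsf at 1.02 and 0.914. Rab3a was at 1.07 and 0.956, and Syn1 at 1.03 and 0.948. In all 5 of these genes Mutyh KO was below WT and DKO above Ogg1 KO, and DKO and Ogg1 KO were also below WT.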

How the results depend on the processing

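No paired analysis was possible because each genotype has 1 library, and for the same reason no library could be left out. The count of members past the threshold in Mutyh KO against WT was 1 (Unc13c) with a pseudocount of 0.1 RPKM, in place of 0. In DKO against WT it was 4 (Syt2, Unc13b, Unc13c and Pclo) with 0.1 RPKM, 1 (Pclo) with 5 RPKM and 1 (Pclo) among genes of at least 5 RPKM, in place of 2. Without ribosomal RNA it was 3 (Unc13b, Unc13c and Pclo), within the bound set for counts. All genes called higher were 1212 of 13186 with 0.1 RPKM, 231 of 13186 with 5 RPKM and 824 of 13207 without ribosomal RNA. In each of these a larger share of the 40 members than of all genes was called higher. The same held for calls lower in DKO against Ogg1 KO with 5 RPKM, for 1 member (Cplx1) and 237 of 13186 genes. In DKO against Mutyh KO the count of members past the threshold was 1 (Sv2c) with 0.1 RPKM, in place of 0. The other 65 counts and medians kept to the bounds set. For counts the bound was 1.5 times. For medians it was the median half-width of a single member's counting interval, 0.046 to 0.048 in log2. That bound is wider than any shift by scaling, so a change of scaling could not move a median past it. No fold of a called member changed direction under another scaling. Of 100 folds of named members under each of 3 other scalings, 11 left the counting interval under median-of-ratios scaling, 6 under TMM and 0 without ribosomal RNA. Of the same folds, 6, 5 and 1 crossed 1, all of members not called: Syp and Sv2c in the Ogg1 KO, Syt1 in the Mutyh KO and Snap25 in the DKO library against WT, Snap91 in DKO against Ogg1 KO, and Syp in DKO against Mutyh KO, each within 0.987 to 1.01 under the scaling that moved it. The scalings shifted log2 ratios by at most 0.035, so the sign of a member or family median nearer to 0 than this is not settled: the median of the members in Ogg1 KO against WT was -0.0002 under median-of-ratios scaling, and that of the SV2 genes there was -0.0084. Depth limits the weakest members, such as Rims3, Sv2c and Syt2, to intervals that hold 1 in at least 1 comparison with WT.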

Other observations

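Each synapsin gene hosts a gene of the tissue inhibitors of metalloproteinases on its other strand. Timp3, within Syn3, had 2754 reads (34.6 RPKM) in the Ogg1 KO, 3118 (38.8 RPKM) in the Mutyh KO and 2811 (33.0 RPKM) in the DKO library, against 2330 (27.5 RPKM) in WT, so WT was its lowest library and Mutyh KO its highest, at 1.26-fold (1.19 to 1.33) of WT in the Ogg1 KO, 1.41-fold (1.34 to 1.49) in the Mutyh KO and 1.201-fold (1.14 to 1.27) in the DKO library. Timp4, within Syn2, had 398 reads in the Ogg1 KO, 364 in the Mutyh KO and 372 in the DKO library, against 423 in WT. Timp1, within Syn1, had 11 reads in the Ogg1 KO, 17 in the Mutyh KO and 16 in the DKO library, against 9 in WT, too few to order the libraries. In Mutyh KO both Syn3 and Timp3 were above WT, while in Ogg1 KO Timp3 was above and Syn3 below.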
